A study of Mus musculus with 7 samples.

Results

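Interferon-stimulated genes are the genes that cells switch on when interferon binds to its receptors, and 40 of them, named by symbol, were followed here among the 56854 gene identifiers that all count files shared. All 40 were found, and 39 had enough counts to be tested. The libraries were poly(A)-selected RNA sequencing libraries of whole mouse shoulder joints, each from 1 of 7 mice, taken 2 weeks after the supraspinatus tendon of the left shoulder had been repaired. All mice had the repair. The groups were wild type (n = 3) and Tnc-/- (n = 4), the latter carrying a deletion of the gene for tenascin C, a matrix glycoprotein of healing tendon. The labels give neither strain, sex, age nor a group without surgery, so values compare genotypes after repair and not repair with rest. A whole joint holds tendon, muscle, bone, marrow and infiltrating cells, and fewer cells of a type and less RNA per cell cannot be told apart in its RNA.

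Type I interferons (alpha and beta) signal through IFNAR1 and IFNAR2, the kinases JAK1 and TYK2 and a complex that holds STAT2 and IRF9 and binds the interferon-stimulated response element (ISRE). Interferon gamma, made mainly by T and natural killer cells, signals through IFNGR1 and IFNGR2, and many of its target genes carry the gamma-activated site (GAS). The Ifit, Oas and Mx families are classic type I targets that bind or degrade viral RNA or block viral particles, while the guanylate-binding proteins, the immunity-related GTPases and the immunoproteasome and peptide transporter genes respond strongly to interferon gamma. Many members respond to both. The members are therefore described here as 11 type I members (Ifit, Oas, Mx), 9 gamma-type members (Gbp, Irgm1, Iigp1, Igtp, Psmb8, Psmb9, Tap1) and 20 others.

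Promoter stretches show the sequence that many members share outside the measured counts. RefSeq windows of build GRCm38.p6, 250 bases before to 50 after an annotated start, were at hand for 30 of the 40 members, 34 windows in all. ISRE-like letters, GAAANNGAA on either strand, occurred in 19 of the 34 windows (55.9%), against 8.56% of all 32851 windows of the same length. GAS-like letters, TTCNNNGAA, occurred in 7 of 34 (20.6%), against 8.30% of all windows. The motifs overlapped each other in 54 of all windows. The ISRE-like share was the same for type I (5 of 9 windows) and gamma-type members (5 of 9), and GAS-like letters were found in 2 of 9 and 3 of 9. Each stretch below is 60 bases on the gene's own strand, lies before the annotated start and has the matching letters in capitals. They were picked for the members that the values turn on, and for the near-identical pair Ifit3 and Ifit3b.
Isg15, chr4:156200851-156200910, minus strand: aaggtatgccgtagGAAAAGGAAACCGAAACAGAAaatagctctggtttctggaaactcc
Oas3, chr5:120777695-120777754, minus strand: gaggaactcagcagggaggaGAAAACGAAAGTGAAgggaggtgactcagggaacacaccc
Rsad2, chr12:26456538-26456597, minus strand: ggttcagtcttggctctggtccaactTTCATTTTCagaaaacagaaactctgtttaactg
Trim30a, chr7:104465195-104465254, minus strand: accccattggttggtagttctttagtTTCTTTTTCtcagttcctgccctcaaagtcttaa
Ifit1, chr19:34640779-34640838, plus strand: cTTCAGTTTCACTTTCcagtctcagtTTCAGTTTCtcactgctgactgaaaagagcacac
Ifit3, chr19:34583401-34583460, plus strand: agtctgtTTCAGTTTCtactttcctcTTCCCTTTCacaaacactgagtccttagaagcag
Ifit3b, chr19:34607797-34607856, plus strand: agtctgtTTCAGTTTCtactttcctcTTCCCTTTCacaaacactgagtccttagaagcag
Gbp2, chr3:142620579-142620638, plus strand: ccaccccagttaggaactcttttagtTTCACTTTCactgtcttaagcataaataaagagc
Bst2, chr8:71537563-71537622, minus strand: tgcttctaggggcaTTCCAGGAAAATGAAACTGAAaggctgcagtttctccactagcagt
Isg15 carried 3 overlapping ISRE-like matches in a row, Oas3 2, and Ifit1 3 of which 2 overlap. In the Bst2 stretch a GAS-like match runs into the ISRE-like ones. The printed stretches of Ifit3 and Ifit3b are identical. Tap1 and Psmb9, which lie head to head and whose windows overlap, held neither motif in these windows, and Oas2 had no window.

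Before the members, 3 features of the libraries bear on every value. Gene counts were 13.5 to 18.5 M (mega) per library in wild type and 19.3 to 28.2 M in Tnc-/-. The files of the genotypes list different sets of identifiers, and only the Tnc-/- files hold symbols and rows that name no gene. Any difference in counting therefore cannot be told apart from genotype. The Tnc-/- libraries were alike (Pearson r of log2 CPM 0.969 to 0.977 over the genes tested), while r between wild-type libraries was 0.756 to 0.914. Wild-type libraries 2 and 3 held 1399 and 982 CPM (counts per M counts of the scaled library) over 2010 olfactory and vomeronasal receptor genes, which are genes of sensory neurons of the nose, against 89.1 CPM in wild-type library 1 and 36.5 to 43.9 in Tnc-/-. In those 2 libraries the 586 tested genes spanning over 300 kb also had a median 3.35 and 2.88 above the Tnc-/- mean on the log2 scale, against 0.42 in library 1. Tnc itself, the deleted gene, stood at 352 ± 75.5 CPM (SD, n = 3) in wild type and 41.8 ± 9.26 (n = 4) in Tnc-/-, so reads remained in the libraries labelled Tnc-/-. Of markers of the tissue, Scx was listed at 0 in every library, while the 10-gene tendon and fibroblast list summed to 32317 CPM or more in each.

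Over all 39 members tested, 4 rose in Tnc-/- and 1 fell at an adjusted p under 0.05. Isg15, Oas2, Oas3 and Tap1 were higher and Trim30a was lower. Over all 17791 genes tested, 10.3% were called higher and 18.7% lower. The 10.3% of members called higher is thus the share of all genes, and the 2.56% called lower is a smaller share than that of all genes, a difference that was not tested. The median log2 fold change was 0.24 over the members and 0.00 over all genes, and 24 of the 39 members had a positive value. The median over all genes depended on the span of the gene, however, and no member tested spans over 100 kb. For spans up to 10 kb the median was 0.48 over 13 members and 0.29 over all genes, for 10 to 30 kb it was 0.15 over 21 members and 0.15 over all genes, and for 30 to 100 kb it was -0.08 over 5 members and -0.15 over all genes. For 100 to 300 kb and over 300 kb, where no member lies, it was -0.69 and -2.71 over all genes. In 10 members every Tnc-/- library lay above every wild-type library, where 17.7% of all genes did so, and in 2 every Tnc-/- library lay below, where 17.4% did. The other 27 members overlapped between the genotypes.

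**Figure D1:**
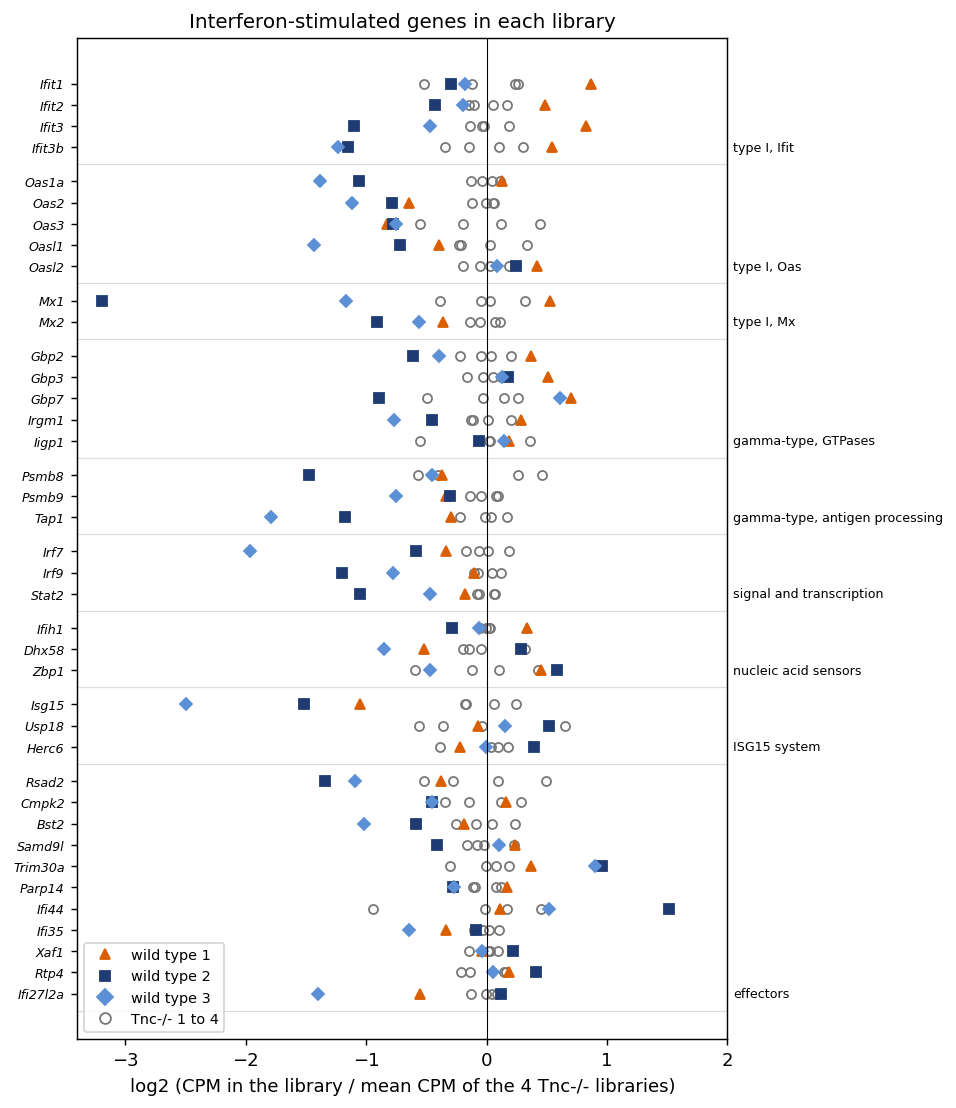
Each row is 1 of the 39 members tested and each symbol 1 library, placed by the log2 ratio of the library's CPM to the mean CPM of the 4 Tnc-/- libraries. Wild-type library 1 (triangles) lies above all Tnc-/- libraries for 17 members, while wild-type libraries 2 and 3 (squares and diamonds) each lie below all of them for 25.

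Isg15 encodes a ubiquitin-like protein that is attached to other proteins and is among the most strongly interferon-induced genes. It had the largest rise of all members. Levels, in library order here and below, were 15.7, 11.4 and 5.77 CPM in wild type and 38.5, 28.9, 33.9 and 28.8 CPM in Tnc-/-. The genotypes did not overlap, and the lowest Tnc-/- library was well above the highest wild-type one. The fold change was 2.97 (log2 1.57, SE 0.32, adjusted p = 0.00997). The other members of the conjugation system did not follow it past the threshold. Usp18, the protease that removes ISG15 and also damps receptor signalling, averaged 2.16 ± 0.45 CPM (SD, n = 3) in wild type and 1.86 ± 0.74 (n = 4) in Tnc-/- (log2 -0.22, SE 0.51, adjusted p = 0.773). Herc6, a ligase of ISG15 in the mouse, averaged 6.13 ± 1.36 and 5.80 ± 0.94 CPM (log2 -0.08, adjusted p = 0.885). Of the further genes of this system, the activating enzyme Uba7, named after its values were seen, was called higher (log2 1.13, SE 0.35, adjusted p = 0.042), and the conjugating enzyme Ube2l6, named on the same ground, was not (log2 0.78, SE 0.29, adjusted p = 0.0697).

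Among the type I members, 2 of the 5 Oas genes rose, while none of the 4 Ifit genes and neither Mx gene passed the test. The 2 of 11 type I members called higher are 18.2%, against 10.3% of all genes. Oas proteins sense double-stranded RNA and make the messenger that activates RNase L. Oas2 was at 14.2, 12.9 and 10.3 CPM in wild type and 23.2, 20.4, 22.2 and 23.2 CPM in Tnc-/-, with no overlap and little spread in either group. Its fold change was 1.79 (log2 0.84, SE 0.18, adjusted p = 0.0125). Oas3 was at 13.3, 13.7 and 13.9 CPM in wild type and 32.0, 20.5, 25.5 and 16.0 CPM in Tnc-/-. Wild type was tight and Tnc-/- ranged widely, its lowest library lying just above wild type (1.73-fold, log2 0.79, SE 0.25, adjusted p = 0.0426). The Oas2 call held when any 1 library was left out (Isg15 likewise), while the Oas3 call was lost when wild-type library 2, wild-type library 3 or 1 of Tnc-/- libraries 1 to 3 was left out (adjusted p 0.0729 to 0.127) and with DESeq2 size factors (0.0542). With the receptor gene sum as an edgeR covariate, Isg15 (log2 0.90, adjusted p = 0.284), Oas2 (log2 0.59, adjusted p = 0.33) and Oas3 (log2 0.88, adjusted p = 0.293) were not called. Oas2 was also lost with a replicate block (adjusted p = 0.0941).

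Oasl1, which restrains translation of Irf7 messenger RNA, was at 5.74, 4.59 and 2.79 CPM in wild type and 9.51, 6.52, 7.67 and 6.43 in Tnc-/-. Here too the genotypes did not overlap, but the difference did not pass the threshold (log2 0.78, SE 0.39, adjusted p = 0.156). Oas1a, another double-stranded RNA sensor of the family, was at 14.7, 6.45 and 5.16 CPM in wild type, library 1 alone lying near the 12.3 to 14.5 CPM of Tnc-/- (log2 0.61, SE 0.37, adjusted p = 0.241). Oasl2, the relative with ubiquitin-like domains, had a value of the opposite sign (35.1 ± 4.12 against 29.4 ± 3.26 CPM, log2 -0.26, adjusted p = 0.229). Oas1a shares 97.5% of 1860 aligned transcript bases with Oas1g, so how its reads were split is uncertain.

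The Ifit genes encode proteins that bind foreign RNA ends, and in all 4 the highest of the 7 libraries was wild-type library 1. Ifit1 was at 24.2, 10.8 and 11.7 CPM in wild type and 15.9, 12.2, 15.6 and 9.26 in Tnc-/- (log2 -0.23, SE 0.34, adjusted p = 0.635). Ifit2 was at 21.5, 11.4 and 13.4 CPM against 16.0, 14.3, 17.3 and 13.9 (log2 -0.01, SE 0.25, adjusted p = 0.987). Ifit3 was at 24.8, 6.51 and 10.1 CPM against 13.8, 15.9, 13.6 and 12.7 (log2 0.02, SE 0.41, adjusted p = 0.982). For Ifit3, all Tnc-/- libraries thus lay between wild-type library 1 and the other two. Ifit3b, at a lower level, also had all Tnc-/- libraries between wild-type library 1 and the other wild-type libraries. It was at 7.08, 2.19 and 2.07 CPM against 4.40, 5.24, 5.99 and 3.82 (log2 0.36, SE 0.54, adjusted p = 0.645). Its transcript is identical to that of Ifit3 at 98.0% of 1697 aligned bases, so the counts of the pair are uncertain.

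Mx1 and Mx2 encode dynamin-like GTPases that trap viral nucleocapsids. Mx1 was the most variable member in wild type, at 9.66, 0.73 and 2.98 CPM, against 6.81, 6.46, 8.34 and 5.13 in Tnc-/-. The wild-type libraries lay on both sides of all Tnc-/- ones (log2 0.58, SE 0.71, adjusted p = 0.573). Mx2 was at 3.22, 2.19 and 2.79 CPM against 4.33, 4.46, 3.97 and 3.77, without overlap, and did not pass the threshold (log2 0.59, SE 0.40, adjusted p = 0.293).

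**Figure D2:**
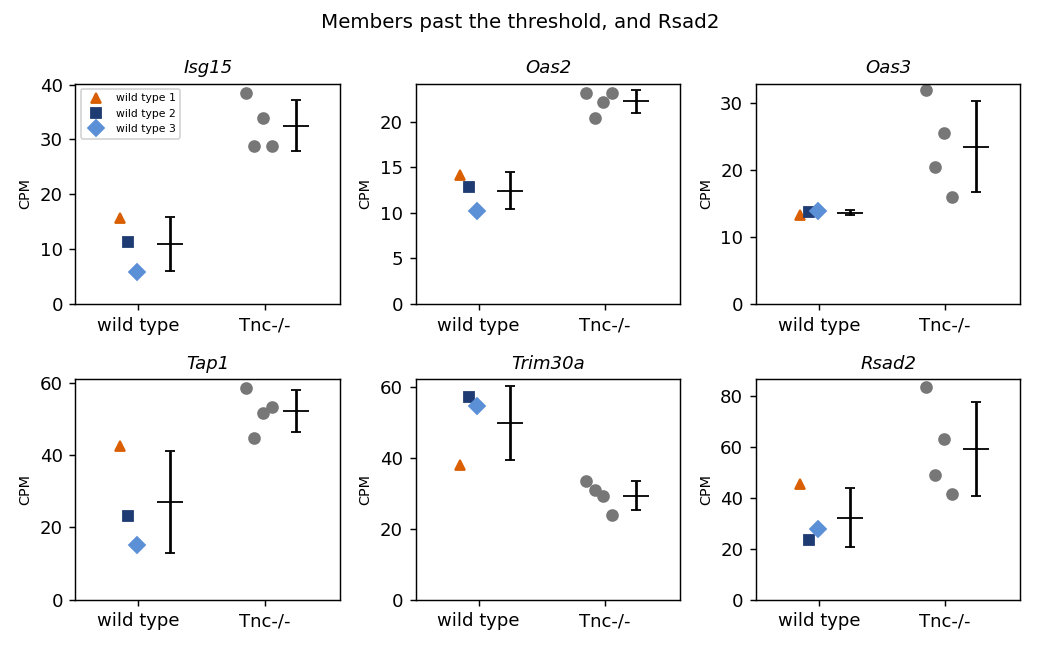
CPM of the 5 members past the threshold and of Rsad2 in each library, with the group mean and SD beside the points. Isg15, Oas2, Oas3 and Tap1 separate the genotypes upwards and Trim30a downwards, while for Rsad2 wild-type library 1 (45.4 CPM) lies above the lowest Tnc-/- library (41.2 CPM).

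Among the gamma-type members, 1 of the 8 tested rose (12.5%, against 10.3% of all genes). Tap1 encodes a subunit of the transporter that carries peptides to MHC class I molecules. It was at 42.7, 23.2 and 15.1 CPM in wild type and 58.7, 44.9, 51.8 and 53.5 CPM in Tnc-/-. The groups did not overlap, though wild-type library 1 came within a few CPM of the lowest Tnc-/- library (1.93-fold, log2 0.95, SE 0.31, adjusted p = 0.0487). The call was lost without any 1 library other than wild-type library 1 (adjusted p 0.0797 to 0.139) and with DESeq2 size factors (0.0579). With the receptor gene sum as an edgeR covariate, Tap1 was at log2 0.014 (adjusted p = 0.986). Psmb9, a catalytic subunit of the immunoproteasome, was at 20.9, 21.4 and 15.7 CPM against 28.2, 23.9, 27.8 and 25.5, also without overlap (log2 0.45, SE 0.17, adjusted p = 0.0796). Tap1 and Psmb9 overlap on opposite strands, and whether counting used the strand is not given in the sources used here. Psmb8, the partner subunit, was low throughout, at 0.60 to 1.29 CPM in wild type and 1.12 to 2.28 in Tnc-/- (log2 0.68, SE 0.58, adjusted p = 0.407).

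None of the 5 gamma-type GTPase genes tested passed the threshold, and Igtp was listed at 0 counts in all 7 libraries. These GTPases attack the vacuoles in which intracellular microbes live. Gbp2 was at 29.3, 14.8 and 17.3 CPM in wild type and 19.4, 26.02, 23.2 and 21.9 in Tnc-/- (log2 0.15, SE 0.25, adjusted p = 0.694). Irgm1, a regulator of the other immunity-related GTPases, was at 46.4, 27.8 and 22.3 CPM against 43.8, 38.3, 34.8 and 35.1 (log2 0.24, SE 0.24, adjusted p = 0.488). For both, wild-type library 1 was the highest of the 7 and libraries 2 and 3 the lowest. Gbp3 was the gamma-type member in which every Tnc-/- library (16.1 to 19.6 CPM) lay below every wild-type one (19.7 to 25.7), by a margin that did not pass (log2 -0.28, SE 0.17, adjusted p = 0.248). Gbp7, a relative of Gbp3, was at 21.3, 7.04 and 19.99 CPM in wild type and 9.31 to 15.7 in Tnc-/- (log2 -0.30, adjusted p = 0.581). Iigp1, which attacks the vacuole membrane, was at 15.6 to 18.6 CPM in wild type and 11.1 to 21.002 in Tnc-/- (log2 -0.09, adjusted p = 0.791).

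Set side by side, the mean levels of the type I and of the gamma-type members were lowest in wild-type libraries 2 and 3, wild-type library 1 lay close to Tnc-/-, and the difference between their levels overlapped between the genotypes. The mean log2 CPM of the 11 type I members was 3.70, 2.64 and 2.80 in wild type and 3.67, 3.51, 3.68 and 3.32 in Tnc-/-. The mean log2 CPM of the 8 gamma-type members with counts was 4.24, 3.52 and 3.70 in wild type and 4.10, 4.22, 4.07 and 3.97 in Tnc-/-. Among the Tnc-/- libraries the order differed, library 3 being highest for type I and library 2 for gamma-type members. The gamma-type level minus the type I level was 0.54, 0.87 and 0.90 in wild type and 0.43, 0.71, 0.39 and 0.64 in Tnc-/-. These differences overlapped between the genotypes, with wild-type libraries 2 and 3 the 2 highest. No p is given, because the members were listed with results known. The median log2 fold change was 0.58 over the type I members and 0.19 over the gamma-type members, a difference of -0.39, which became 0.19 against wild-type library 1 alone. Without wild-type library 2 the type I median was 0.088, the gamma-type median 0.055 and the difference -0.033.

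**Figure D3:**
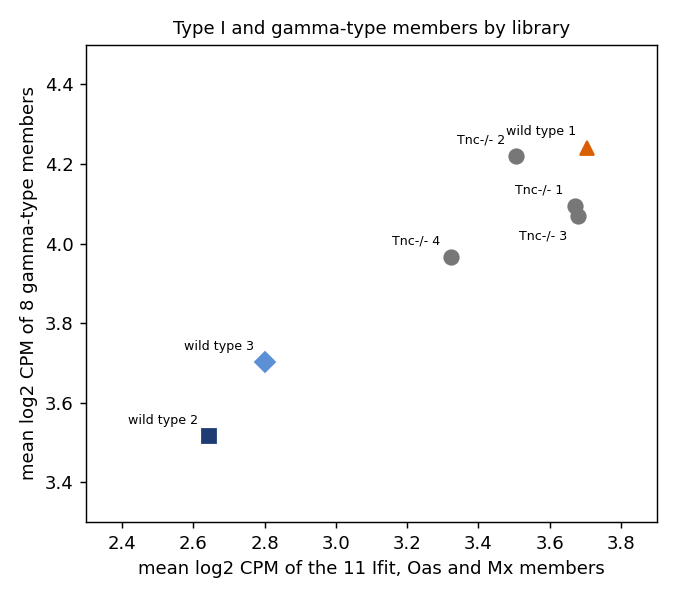
Each point is 1 library, with the mean log2 CPM of the 11 type I members on the x axis and of the 8 gamma-type members with counts on the y axis. Wild-type library 1 (3.70 and 4.24) sits beside the 4 Tnc-/- libraries, and wild-type libraries 2 and 3 sit apart at the lower left.

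The subfamilies within each class had different medians, and these differences were not tested. The median log2 fold change was 0.78 over the 5 Oas genes and 0.00 over the 4 Ifit genes, both type I. It was 0.68 over the 3 antigen processing genes and -0.09 over the 5 GTPase genes, both gamma-type. Summed over the subfamily, Ifit genes were at 77.7, 30.9 and 37.3 CPM in wild type and 39.7 to 52.5 CPM in Tnc-/-. Oas genes were at 87.3, 72.5 and 63.3 CPM in wild type and 84.4 to 109 CPM in Tnc-/-, with wild-type library 1 inside the range of Tnc-/-. Antigen processing genes were at 64.8, 45.2 and 32.0 CPM in wild type and 71.1 to 88.2 CPM in Tnc-/-, without overlap. Within the type I members, the mean log2 CPM of Oas genes minus that of Ifit genes was -0.27, 0.80 and 0.27 in wild type and 0.83, 0.51, 0.58 and 0.77 in Tnc-/-, with wild-type library 2 above 3 of the 4 Tnc-/- libraries. Within the gamma-type members, antigen processing genes minus GTPase genes gave -1.35, -1.20 and -1.54 in wild type and -0.66, -0.74, -0.81 and -0.25 in Tnc-/-, without overlap. Psmb8, low in every library at 9 to 41 counts, is 1 of the 3 antigen processing genes in this mean. It shares 14.7% of its exon bases with the predicted gene Gm20496, and Tap1 and Psmb9 overlap each other.

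The 3 signalling and transcription factor members were each higher in every Tnc-/- library than in every wild-type one, as were 17.7% of all genes, and none passed the threshold. Irf7, the factor that amplifies interferon alpha production, was at 32.1, 27.0 and 10.4 CPM in wild type and 38.9, 36.1, 46.2 and 40.9 in Tnc-/- (1.75-fold, log2 0.80, SE 0.33, adjusted p = 0.0995). Irf9, the DNA-binding subunit of the STAT complex, was at 46.3, 21.7 and 29.2 CPM against 54.1, 47.4, 51.5 and 46.4 (log2 0.62, SE 0.24, adjusted p = 0.0793). Stat2 was at 48.9, 26.6 and 40.03 CPM against 57.7, 52.3, 58.2 and 53.0 (log2 0.52, SE 0.20, adjusted p = 0.0759). For Irf9, wild-type library 1 and the lowest Tnc-/- library were nearly level.

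The nucleic acid sensors among the members showed no difference past the threshold. Ifih1 (MDA5), a sensor of long double-stranded RNA, averaged 18.4 ± 4.08 CPM (SD, n = 3) in wild type and 18.1 ± 0.47 (n = 4) in Tnc-/- (log2 -0.02, SE 0.19, adjusted p = 0.948). Dhx58 (LGP2), its regulator, averaged 5.96 ± 2.54 and 7.23 ± 1.23 CPM (log2 0.28, adjusted p = 0.616). Zbp1, a sensor of Z-form nucleic acid that can trigger necroptosis, averaged 11.8 ± 4.09 and 9.83 ± 2.80 CPM (log2 -0.26, adjusted p = 0.607).

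Of the 11 effector members, Trim30a fell and none rose past the threshold. The 1 called lower is 9.09%, against 18.7% of all genes, and 10.3% of all genes were called higher. Trim30a encodes a tripartite-motif protein that restrains NF-kB signalling. It was at 37.9, 57.0 and 54.7 CPM in wild type and 33.4, 30.9, 29.2 and 23.8 CPM in Tnc-/-. The groups did not overlap, and wild-type library 1 lay nearer to Tnc-/- than to the other wild-type libraries (0.588-fold, log2 -0.77, SE 0.18, adjusted p = 0.0171). The call was lost when wild-type library 2, wild-type library 3, Tnc-/- library 3 or Tnc-/- library 4 was left out (adjusted p 0.0507 to 0.0725). Its transcript is 87.4% identical to that of Trim30d over 3038 aligned bases.

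Rsad2 (viperin), whose product makes a chain-terminating nucleotide, was at 45.4, 23.3 and 27.8 CPM in wild type and 83.2, 48.8, 63.1 and 41.2 in Tnc-/- (1.84-fold, log2 0.88, SE 0.30, adjusted p = 0.0552), and was called higher by DESeq2. Cmpk2, its genomic neighbour and a nucleotide kinase, was at 30.4, 19.9 and 19.9 CPM against 33.3, 24.6, 29.7 and 21.4 (log2 0.22, adjusted p = 0.493). In both, wild-type library 1 lay within the range of Tnc-/-. Bst2 (tetherin), which holds budding virions at the cell surface, was at 48.9, 37.3 and 27.5 CPM against 52.7, 47.0, 57.8 and 66.0 (log2 0.56, SE 0.21, adjusted p = 0.0737). Ifi27l2a was at 46.3, 73.5 and 25.6 CPM in wild type and 61.9 to 71.8 in Tnc-/- (log2 0.48, adjusted p = 0.246), and passed only without wild-type library 2 (log2 0.91, adjusted p = 0.0368). Ifi44 was at 4.13, 10.9 and 5.47 CPM against 3.77, 4.29, 5.21 and 1.99, the largest negative value of the 39 and not past the threshold (log2 -0.84, SE 0.49, adjusted p = 0.229). The other 5 effectors, Samd9l, Parp14, Ifi35, Xaf1 and Rtp4, had log2 fold changes of 0.00, 0.11, 0.34, -0.05 and -0.22 and adjusted p of 0.998, 0.632, 0.221, 0.815 and 0.396.

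The number of members called changed with the wild-type libraries compared. Against wild-type libraries 2 and 3 alone, all 5 calls were kept and others added: 19 of 39 members were called higher and 1, Trim30a, lower, where 24.3% of 21989 genes were called higher and 39.9% lower. The 19 members called higher included 7 of the 11 type I and 4 of the 8 gamma-type members. Isg15 then stood at log2 2.02 (SE 0.26, adjusted p = 2.47e-05), Mx1 at 1.93 (SE 0.51, adjusted p = 0.00507), Tap1 at 1.54 (SE 0.19, adjusted p = 1.83e-05) and Irf7 at 1.21 (SE 0.29, adjusted p = 0.00233). Ifit3, level with all 3 libraries, was called higher (log2 0.84, SE 0.26, adjusted p = 0.0118).

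Against wild-type library 1 alone, assumed to vary like the other libraries, only Isg15 was called higher and only Ifit3 lower, where 2.53% of 18530 genes were called higher and 1.92% lower. This comparison was chosen after the data were seen. With 1 wild-type library the spread comes from Tnc-/- alone, and the coefficient of variation was 45.4% in wild type against 14.4% in Tnc-/- for Isg15 and 70.4% against 9.59% for Ifit3, so these p-values are too small and nothing is rested on them. The values were log2 1.05 for Isg15 (adjusted p = 0.0274) and -0.83 for Ifit3 (adjusted p = 0.0444). The other calls were lost, Oas2 (log2 0.64, adjusted p = 0.0889) and Oas3 (log2 0.82, adjusted p = 0.153) with values near those against all wild-type libraries, and Tap1 (log2 0.29, adjusted p = 0.343) and Trim30a (log2 -0.38, adjusted p = 0.261) with smaller ones. The members' median log2 fold change was 0.55 against libraries 2 and 3 and -0.12 against library 1, where the medians of all genes were -0.16 and 0.03.

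**Figure D4:**
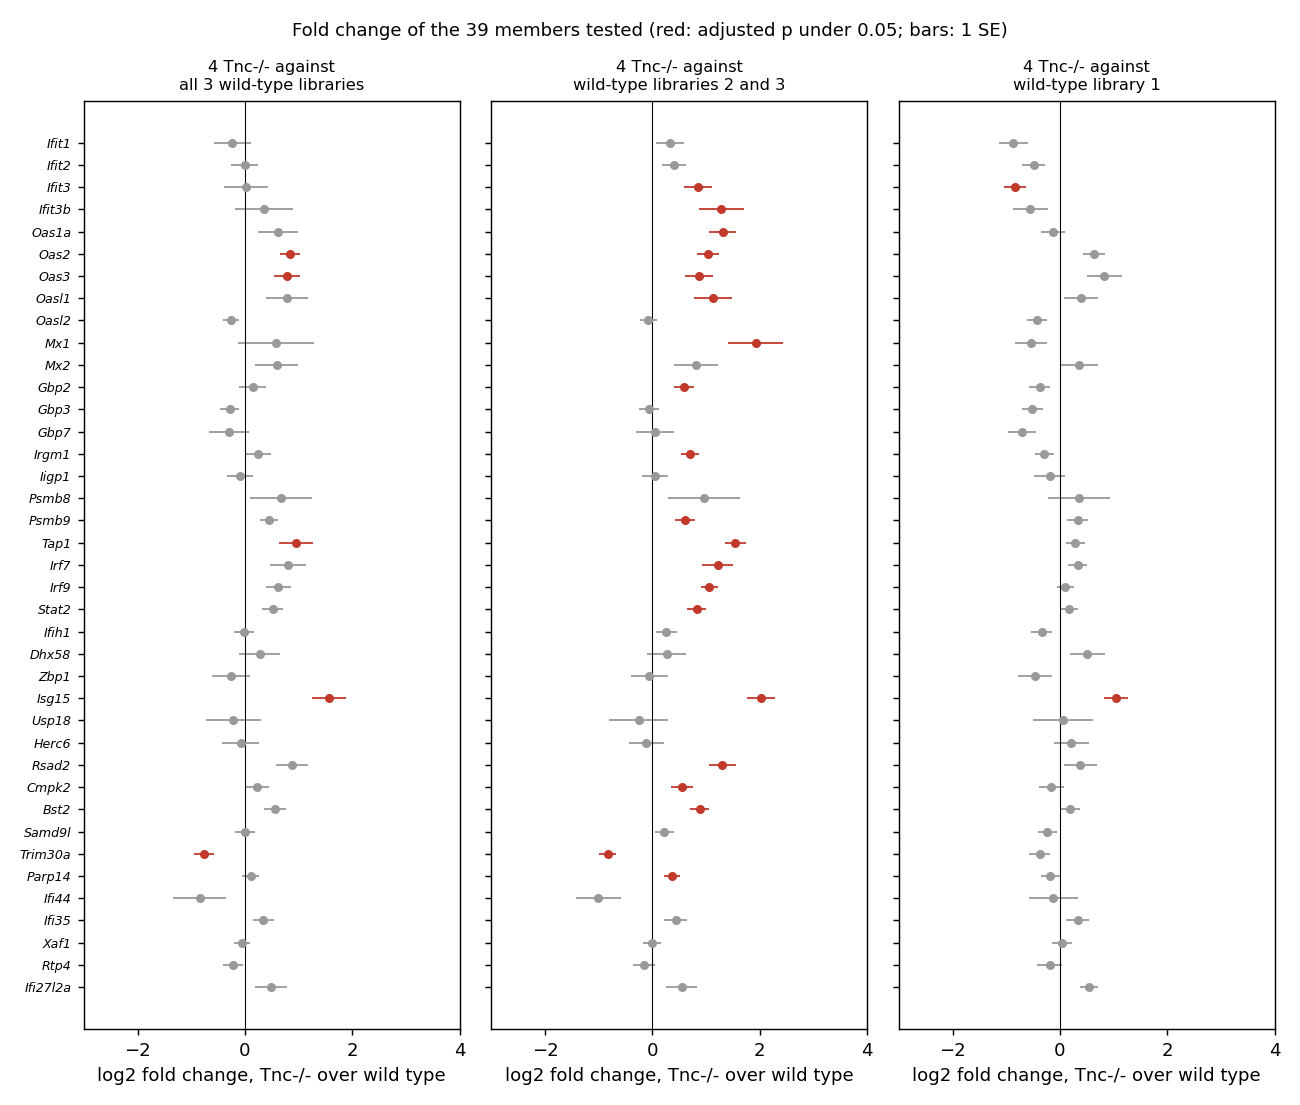
Log2 fold change of each of the 39 members tested (x axis, bars 1 SE), with the 4 Tnc-/- libraries set against all wild-type libraries, against wild-type libraries 2 and 3, and against wild-type library 1. Red marks an adjusted p under 0.05: 5, 20 and 2 members. The third panel rests on 1 wild-type library with its spread taken from Tnc-/-, and shows values only.

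The position of single libraries needs no fit. Wild-type library 1 lay above all 4 Tnc-/- libraries for 17 of 39 members (43.6%, against 30.9% of all genes) and below all of them for 13 (33.3%, against 31.9%). Wild-type library 2 lay below all Tnc-/- libraries for 25 members (64.1%, against 42.2% of all genes), and library 3 also for 25 (64.1%, against 40.4%). For the type I members alone, library 1 lay above all Tnc-/- libraries in 7 of 11, and libraries 2 and 3 below all of them in 9 of 11 each. Members varied more among wild-type than among Tnc-/- libraries: the coefficient of variation of CPM had a median of 34.0% in wild type and 12.1% in Tnc-/- and was larger in wild type for 35 of 39 members. Over all genes the medians were 29.7% and 16.0%, and 77.9% of genes varied more in wild type, so the wider spread was not confined to the members.

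Markers of other cell types differed between the libraries too, and their sums did not all follow the order of the members. Of all genes tested, 10.3% were called higher and 18.7% lower, to be read beside the counts of markers called. The 10 macrophage and monocyte markers, none of them at 0, summed to 3239, 1790 and 1693 CPM in wild type and 2635 to 3114 in Tnc-/-, with 2 of 10 called higher. Lyz2 made up most of that sum, and without it the sums were 944, 634 and 559 CPM in wild type and 825 to 963 in Tnc-/-. The 10 neutrophil and marrow myeloid markers, also all detected, summed to 5805, 2782 and 3040 CPM in wild type and 6413 to 10897 in Tnc-/-, with 7 of 10 called higher. The 8 plasmacytoid dendritic cell markers, a cell type known for high interferon output, summed to 66.5 to 70.8 CPM in wild type and 55.1 to 112 in Tnc-/-, with Cox6a2 at 0 and none of 7 called. Without Pacsin1, which was at 2.25, 42.9 and 34.7 CPM in wild type and 4.46 to 7.95 in Tnc-/-, the sums were 64.2, 27.9 and 34.6 CPM in wild type and 50.6 to 106 in Tnc-/-. Siglech, a defining marker, was at 7.78, 3.06 and 3.71 CPM in wild type and 8.02 to 15.9 in Tnc-/-, without overlap. It was not called (edgeR adjusted p = 0.0543). Of the 7 markers tested, Siglech alone (14.3%) had every Tnc-/- library above every wild-type one, where 17.7% of all genes did so. The other 6 overlapped, and 2 of the 7 had a negative log2 fold change. Lyz2, Pacsin1 and Siglech were singled out after their values were seen. T and natural killer cell markers summed to 38.8, 55.4 and 49.6 CPM in wild type and to 35.7 to 56.4 in Tnc-/-, with 1 of 10 called lower. B cell markers summed to 157, 74.2 and 99.9 CPM in wild type and 139 to 265 in Tnc-/-, with Ms4a1 at 0 and 2 of 6 called higher. Erythroid markers summed to 9432, 4884 and 5960 CPM in wild type and 13482 to 26391 in Tnc-/-, with Alas2 at 0 and 5 of 7 called higher. Skeletal muscle markers summed to 27657, 20025 and 20106 CPM in wild type and 29818 to 43557 in Tnc-/-, also without overlap, with 3 of 8 called higher. The part of these cells, and that of the receptor gene background, in the members' values was not tested beyond a fit with the receptor gene sum as a covariate, in which edgeR called no member (6 had an unadjusted p under 0.05).

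The rest of the pathway was read from 7 lists. Of 21 interferon ligand genes none had enough counts to be tested, and 16 were listed at 0 counts in all libraries, Ifnb1 among them. Ifng had 3, 75 and 55 counts in wild type and 0, 2, 0 and 0 in Tnc-/-. Nearly all of its counts thus came from wild-type libraries 2 and 3, and its exons overlap a predicted gene on the same strand.

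Of the 6 receptor genes, 2 were called lower (33.3%, against 18.7% of all genes). Ifnar2, the chain of the type I receptor that binds STAT2, averaged 18.02 ± 5.64 CPM (SD, n = 3) in wild type and 2.64 ± 0.50 (n = 4) in Tnc-/- (log2 -2.77, SE 0.33, adjusted p = 0.00551). Il10rb, a chain of the interferon lambda and interleukin 10 receptors, had 420, 367 and 400 counts in wild type and was listed at 0 in every Tnc-/- library. Both share exon bases with the same predicted read-through gene, Gm21970, and reads of overlapping genes can be dropped or kept in counting, so both values are uncertain. Ifnar1, named after its values were seen, averaged 59.1 ± 15.8 and 74.3 ± 2.55 CPM (log2 0.33, SE 0.18, adjusted p = 0.189).

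Of 10 kinase and transcription factor genes, 2 were called higher (20%, against 10.3% of all genes) and none lower (18.7% of all genes). They were Irf3, which starts interferon transcription after sensing (32.6 ± 5.38 against 48.0 ± 3.96 CPM, log2 0.56, SE 0.15, adjusted p = 0.0269), and Irf8, a factor of macrophages and dendritic cells (41.9 ± 16.6 against 78.6 ± 17.5 CPM, log2 0.91, SE 0.27, adjusted p = 0.0355). Irf1, a transcription factor induced by interferon gamma, averaged 22.5 ± 10.6 and 31.5 ± 3.96 CPM (log2 0.49, SE 0.28, adjusted p = 0.226). Its levels overlapped between the genotypes.

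Among 12 tested sensors and adaptors, 8.33% were called higher and 8.33% lower, against 10.3% and 18.7% of all genes. Ikbke, a kinase that phosphorylates IRF3, was called higher (log2 1.08, SE 0.30, adjusted p = 0.0283). Ddx60, a helicase linked to RNA sensing, was called lower (log2 -0.84, SE 0.27, adjusted p = 0.046). It spans 110 kb, and the median over all genes of 100 to 300 kb was -0.69. Among 10 tested negative regulators, 20% were called higher and 10% lower. The RNA editing enzyme Adar (log2 1.40, SE 0.26, adjusted p = 0.00834) and the phosphatase Ptpn6 (log2 1.001, SE 0.25, adjusted p = 0.0183) were called higher. Adar shares 16.8% of its exon bases with Chrnb2 on the opposite strand, so its value is uncertain. Ptpn2, a phosphatase that acts on JAK1, was called lower (54.9 ± 17.9 against 27.2 ± 2.39 CPM, log2 -1.01, SE 0.22, adjusted p = 0.011).

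Of 38 further antiviral genes tested, 6 were called higher (15.8%, against 10.3% of all genes) and none lower (18.7% of all genes). The 4 with the smallest p were the helicase gene Helz2 (log2 1.30, SE 0.25, adjusted p = 0.00885), the chaperone of histone H3.3 Daxx (log2 0.75, SE 0.18, adjusted p = 0.0174), the RNA sensor Znfx1 (log2 0.45, SE 0.12, adjusted p = 0.0223) and Pml, the scaffold of nuclear bodies (log2 0.50, SE 0.14, adjusted p = 0.0275). The list's median log2 fold change was 0.18.

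Of 21 further gamma-type genes tested, 3 were called higher (14.3%, against 10.3% of all genes) and 1 lower (4.76%, against 18.7%). The 3 were the partner subunit of the peptide transporter, Tap2 (17.7 ± 3.57 against 29.4 ± 1.07 CPM, log2 0.73, SE 0.17, adjusted p = 0.0159), and the proteasome activator subunits Psme2 (log2 0.62, SE 0.18, adjusted p = 0.0329) and Psme1 (log2 0.63, SE 0.20, adjusted p = 0.044). Tap2 shares 18.5% of its exon bases with 2 predicted genes on the opposite strand, so its value is uncertain. Other antigen processing genes of the list, named after their values were seen, were not called, among them Tapbp (log2 0.38, adjusted p = 0.127), H2-K1 (log2 0.41, adjusted p = 0.152) and Erap1 (log2 -0.14, adjusted p = 0.677). Ido1, the tryptophan-degrading enzyme, was called lower, with 12, 110 and 49 counts in wild type and 4, 0, 1 and 2 in Tnc-/- (adjusted p = 0.00915). Like Ifng, it had most of its counts in wild-type libraries 2 and 3. Another 13 genes of this list, B2m and Cxcl10 (chosen after their values were seen) among them, were listed at 0 counts in all 7 libraries. Over the 7 lists, each gene counted once, 14 of 96 tested genes were called higher (14.6%, against 10.3% of all genes) and 5 lower (5.21%, against 18.7%), with a median log2 fold change of 0.24.

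Compared per length, as CPM per kb of exon, the members spanned from Ifi27l2a (105 in wild type and 146 in Tnc-/-) and Bst2 (42.0 and 61.9) to Psmb8 (0.31 and 0.49). Isg15 had rank 3 of the 39 over all libraries, at 14.5 CPM per kb in wild type and 43.0 in Tnc-/-, and Rsad2 rank 4, at 7.41 and 13.6. These lengths come from another annotation release than the counts, and order levels between genes only roughly.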

How the data were processed

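The deposited values are raw counts per gene, 1 file per library, as the files show. The submitters' processing notes name FastQC 0.11.9, HISAT2 2.2.1, HTSeq 2.0.2 and DESeq2 1.38.3 and the build GRCm39 (mm39), without roles or order. Per the labels, RNA was poly(A)-selected for NEBNext Ultra libraries. The wild-type files list 56980 identifiers and the Tnc-/- files 56941 with symbols. The 56854 in both were used. Rows that name no gene, present in the Tnc-/- files only, held 30.1 to 32.7% of their counts and were left out, and 0 columns of values were left unmapped.

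Genes passing filterByExpr entered the quasi-likelihood F test of edgeR 4.0.16 (R 4.3.3, TMM scaling, robust dispersions, genotype as the 1 term), with Benjamini-Hochberg adjustment over all 17791 genes and a threshold of 0.05. CPM are counts per M (mega) of the TMM-scaled library size, and log2 levels add 0.5 counts. Fold changes are Tnc-/- over wild type. The fit was tested on simulated data. Alternatives with DESeq2 1.42.0, limma 3.58.1 voom, other scalings, filters, left-out libraries and a receptor gene covariate are in the closing section. Exon lengths, spans and overlaps came from GENCODE M21 (GRCm38), promoters from RefSeq (GRCm38.p6), and neither was matched to the counts by coordinates.

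The members and lists were chosen with earlier results of these data known. All 40 members may be named, and from each pathway list the genes past the threshold (at most 5, otherwise the 4 with the smallest p) with Irf1, Ifnb1 and Ifng. A further gene that the rule names is not reported here. Markers are named where listed at 0, and Lyz2, Pacsin1 and Siglech were named outside that rule, after their values were seen. Each library is 1 mouse, so p-values measure the spread between libraries within 1 experiment. That spread mixes differences between mice with differences between libraries, such as the receptor gene background in wild type. It does not cover a difference between the files of the genotypes.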

Additional observations from a re-analysis of the deposited data

How the results depend on the processing

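The 5 called members kept the sign of their fold change under all 19 alternatives, but with the receptor gene covariate Tap1 went from log2 0.95 to 0.014 (adjusted p = 0.986) and Trim30a moved from -0.77 to -0.18 (adjusted p = 0.737). Isg15 stayed past the threshold under 17, Oas2 under 15, Trim30a under 10, Oas3 under 5 and Tap1 under 4. The 17 for Isg15 include the fit against wild-type library 1 alone, which is no support, since nothing is rested on its p-values. Of the 34 uncalled members, 20 changed sign under at least 1 alternative. The number of genes called, 5159, became 9423 with DESeq2, 973 with limma voom, 22 with Bonferroni adjustment, 397 with the receptor gene covariate and 825 without wild-type libraries 2 and 3, and ranged from 2229 to 14113 when 1 library was left out (the highest without wild-type library 1). The 4 members called higher became 2 with DESeq2 size factors, upper-quartile scaling, library totals, a minimum of 10 counts in every library or limma voom. They became 0 with Bonferroni adjustment (11 at an unadjusted edgeR p under 0.05, 5 called by DESeq2) and 0 with the covariate (6 unadjusted), 1 without wild-type libraries 2 and 3, and 2 to 19 when 1 library was left out. The 1 member called lower became 3 with library totals, 0 with limma voom, Bonferroni adjustment or the covariate, and 0 to 1 when 1 library was left out. Replicate numbers of the genotypes share only a number (correlations of same-numbered deviations 0.07 or less), and with the replicate block on libraries 1 to 3 of each genotype 1713 genes were called, 2 members higher (Isg15 and Rsad2) and 0 lower.

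The members' median of 0.24 became 0.024 with library totals, which moved the median of all genes to -0.24, and -0.16 with the covariate. It was -0.12 without wild-type libraries 2 and 3, and 0.064 to 0.55 when 1 library was left out. The type I median of 0.58 became -0.48 with the covariate and -0.43 without wild-type libraries 2 and 3, with 0.088 to 0.86 when 1 library was left out. The gamma-type median of 0.19 became -0.35, -0.24 and 0.038 to 0.60 in the same order. Their difference of -0.39 became 0.13, 0.19 and -0.41 to -0.03. With library totals the type I median was 0.36, the gamma-type median -0.025 and the difference -0.38. Causes were not tested. Leaving out wild-type library 1 lost none of the 5 calls, and leaving out wild-type library 2 or 3 lost Oas3, Tap1 and Trim30a. The covariate is higher in every wild-type than in every Tnc-/- library.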
